A study of Homo sapiens with 6 samples.

Results

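The cells labelled BJELM were compared with BJEL, the line they were derived from, to describe the expression changes that came with the last step of a stepwise transformation series. All 4 arrays titled BJEL or BJELM, of the 6 arrays in the series, were used over 18417 genes, and the 2 BJ arrays served to estimate the spread and, where their levels are given, as context. BJ are primary human foreskin fibroblasts. BJEL carry hTERT, which supplies telomerase activity, and the early region of SV40, which encodes the large T and small t antigens, and were grown with G-418 and hygromycin. BJELM carry the same genes and, by retroviral transfer of pBabe-MYC-ER, a fusion of MYC with a hormone-binding estrogen receptor domain. They were grown with puromycin in addition and kept continuously in 4-hydroxytamoxifen at 1e-06 M, the ligand that activates the fusion. Puromycin, 4-hydroxytamoxifen, the retrovirus and MYC-ER all differ between the lines in the same way, so their effects cannot be told apart. The lines are 1 derivation each, with 2 arrays per line that the sources describe as biological replicates, and p-values therefore measure the spread between these arrays and not between independent transformations.

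MYC is a transcription factor that binds DNA together with its partner MAX, most tightly at the E-box palindrome CACGTG, and is known for raising genes of ribosome production, nucleotide synthesis and mitochondrial metabolism. Fusion to the estrogen receptor domain holds MYC inactive until its ligand is added. Interferon-stimulated genes form a separate antiviral programme: receptors that sense viral nucleic acids induce interferon, and interferon in turn switches on these genes through response elements in their promoters. Large T antigen, present in both lines compared here, binds the tumor suppressors RB and p53.

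Values are log2 signals of probe sets, and every change is a log2 difference, BJELM minus BJEL, ± SE from limma with n = 2 arrays per line, so that a difference of 1 is a 2-fold change. A gene is said to have risen or fallen where its adjusted p, by the Benjamini-Hochberg method over all genes, was under 0.05 and its change at least 2-fold. Array medians over all probe sets lay between 6.37 and 6.46. Pearson's r across genes was 0.994 for the BJEL pair and 0.993 for the pair labelled BJELM, and 0.968 to 0.981 for arrays of different lines. Genes are not independent replicates, so these values describe the arrays, and the small number of arrays limits the precision of each estimate.

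The introduced genes were examined first. MYC (Entrez 4609, probe set 8148317) read 10.22 and 10.12 on the BJEL arrays and 9.57 and 8.90 on the arrays labelled BJELM. Both arrays labelled BJELM were lower than both BJEL arrays, although that label names the line given MYC-ER. The difference was -0.93 ± 0.21 (adjusted p = 0.0444), with a 95% confidence interval of -1.45 to -0.41. The difference is short of 2-fold, and BJELM replicate 2 was the lower of that pair. ESR1, the estrogen receptor gene, read 5.20 and 5.35 on the BJEL arrays and 5.28 and 5.50 on the arrays labelled BJELM, and its difference of 0.11 ± 0.11 (adjusted p = 0.582) did not pass the test. The positions of the probes on MYC and ESR1 were not analysed here, so it is not known whether these probe sets read the fusion transcript. TERT, which both lines carry, read 10.71 and 10.97 on the BJEL arrays and 10.84 and 10.78 on the arrays labelled BJELM, and the groups overlapped, with a difference of -0.03 ± 0.11 (adjusted p = 0.912). The study also examined c-MYC protein by Western blotting and MYC RNA by RT-qPCR, neither of which was analysed here. Because the MYC probe set did not show the added gene, the cells are called by their label in what follows, and each direction rests on it.

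In all, 494 of the 18417 genes were called, 2.68% of those tested. Of these, 170 rose (0.923%) and 324 fell (1.76%) on the arrays labelled BJELM. The 2 arrays of each line did not overlap in any of the 494. The same held for uncalled genes such as LBR and OAZ1, and the share over all genes was not counted. The lack of overlap therefore adds nothing to the calls. Changes of at least 4-fold were seen for 22 genes that rose and 75 that fell. The median difference over all genes was 0.03. The number of genes that fell was 195 without BJEL replicate 1 and 214 without BJELM replicate 2, and the number that rose lay between 132 and 183 whichever array was left out. Without a fold minimum, 835 genes had an adjusted p under 0.05 with a positive difference (4.53%) and 1157 with a negative difference (6.28%). An unadjusted limma p under 0.05 was found for 4687 of the 18417 genes, and such counts of a list are to be read against this.

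**Figure D1:**
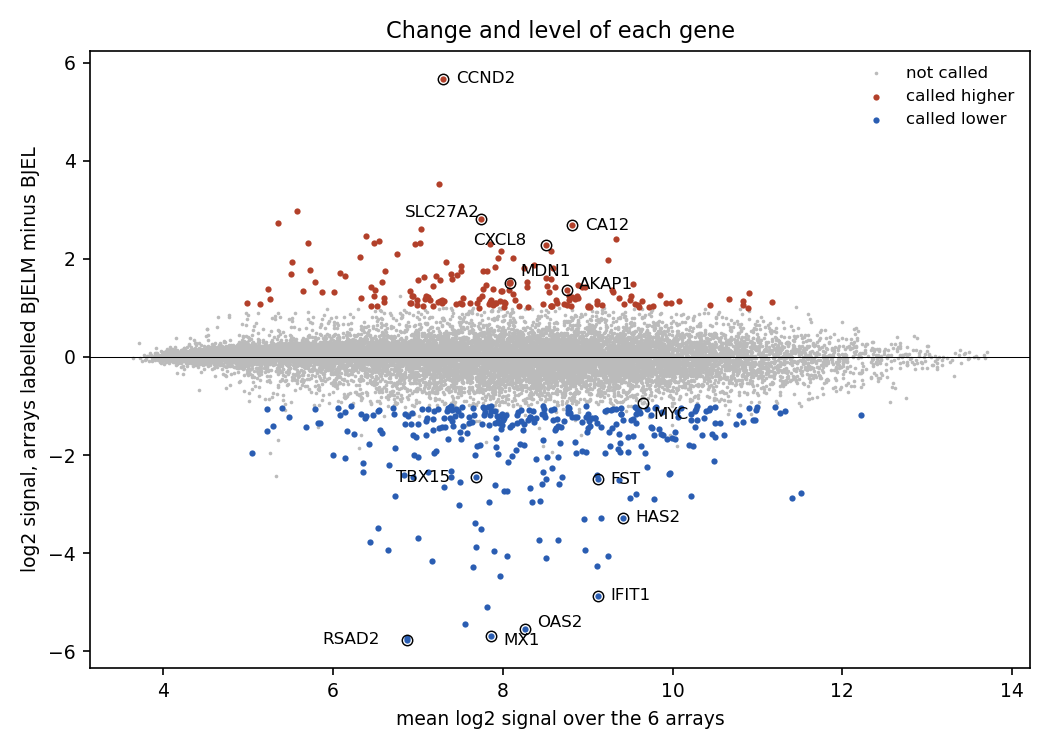
Each point is 1 of 18394 genes (Y-linked genes and XIST are not drawn), with its mean log2 signal over the 6 arrays on the x axis and its log2 difference, arrays labelled BJELM minus BJEL, on the y axis. Red points rose, blue points fell and grey points were not called. CCND2 stands alone at 5.68, and the points below -4 are interferon-stimulated genes such as MX1, OAS2 and RSAD2, while MYC lies at -0.93.

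The gene lists below cover ribosome and nucleotide production, metabolism, cell division, interferon and inflammation, matrix and signalling, chromatin, and markers of other cell types. The lists hold 2793 distinct measured genes, 160 of which were called. Beside most lists stand their counts and, for many, their median, to be read against the shares and the median over all genes above. No list was tested as a set.

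**Figure D2:**
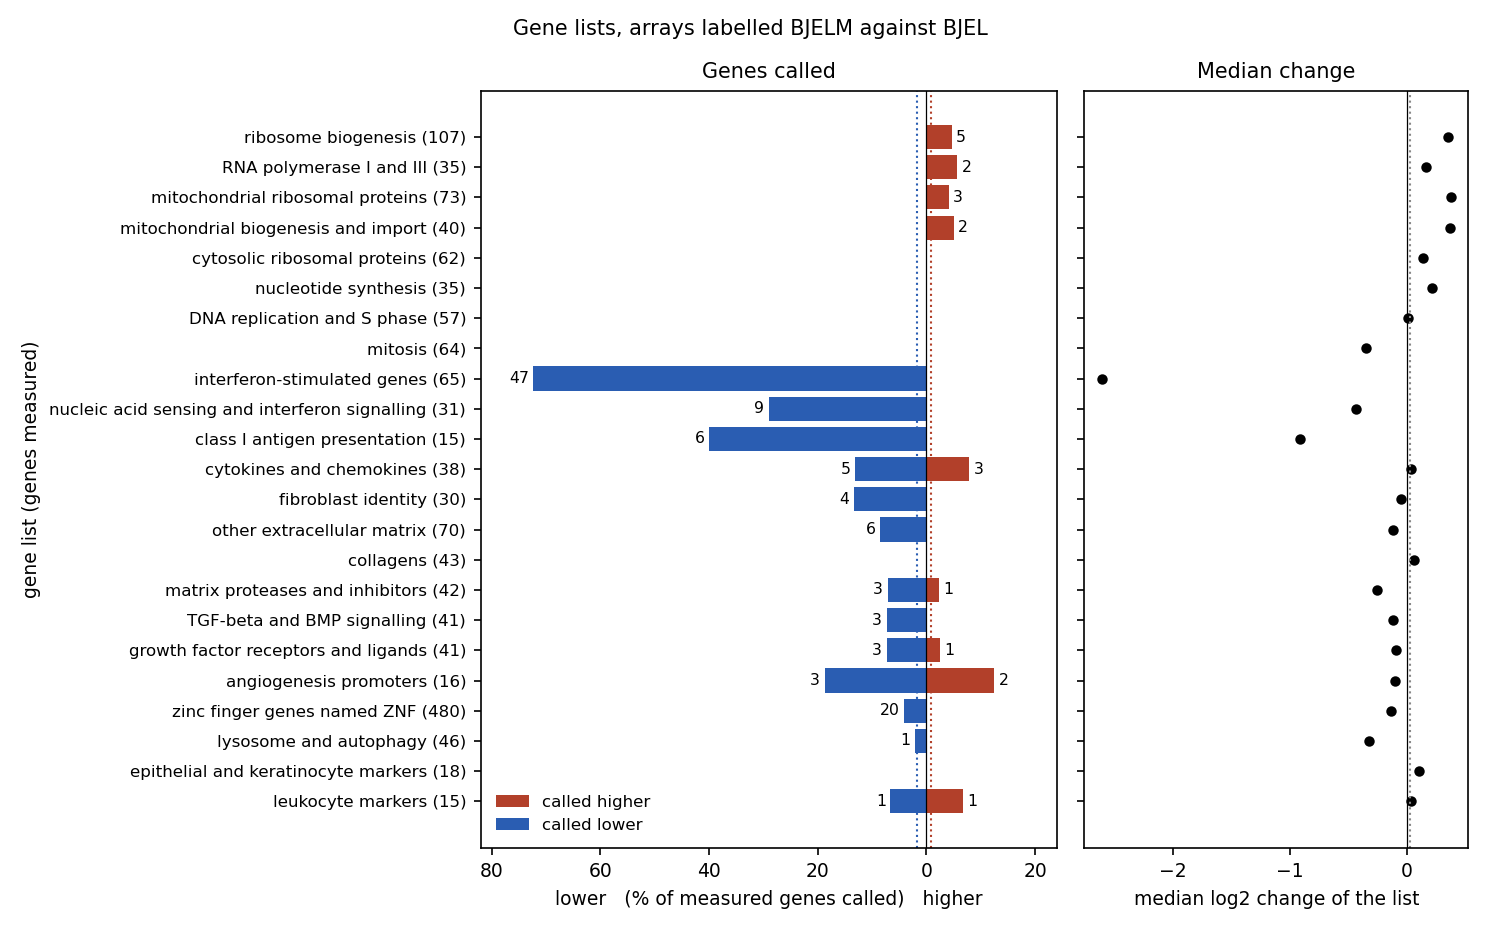
For 23 gene lists, with the number of measured genes in brackets, the left panel shows the percentage of measured genes that rose (red, to the right) or fell (blue, to the left), with the number of genes at each bar and dotted lines at the shares over all genes (0.923% and 1.76%). The right panel shows the median log2 change of each list, with a dotted line at the median of all genes. The 3 interferon-related lists have the longest bars, with 47, 9 and 6 genes lower and 0 higher, and the medians of the ribosome biogenesis and mitochondrial lists lie to the right of 0.

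The largest rise of any gene was that of CCND2 (Entrez 894, probe set 7953200, chromosome 12), which encodes cyclin D2, an activator of the G1 kinases CDK4 and CDK6. CCND2 read 5.16 and 5.33 on the BJEL arrays and 10.75 and 11.09 on the arrays labelled BJELM, and 5.95 and 5.53 on the BJ arrays. It was near the low end of the scale on all arrays but those labelled BJELM, and rose by 5.68 ± 0.18 (adjusted p = 0.00024), about 51.1-fold. The related CCND1 differed by 0.22 ± 0.11 (adjusted p = 0.301) and CCND3 by -0.34 ± 0.099 (adjusted p = 0.0897), and neither passed the test, so that of 15 measured G1 cyclins and kinases CCND2 alone was called.

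Leaving aside genes under the median level of 7.26, the other large rises were of genes with varied roles. Some genes left aside, such as SLC7A2, rose by more than those given here. SLC27A2, a fatty acid transporter and acyl-CoA synthetase, read 6.98 and 6.81 on the BJEL arrays and 9.49 and 9.92 on the arrays labelled BJELM, and rose by 2.81 ± 0.19 (adjusted p = 0.00181). CA12, a carbonic anhydrase of the cell surface, read 7.34 and 7.40 on the BJEL arrays and 10.09 and 10.03 on the arrays labelled BJELM, and rose by 2.69 ± 0.11 (adjusted p = 0.000515). On the BJ arrays CA12 read 9.15 and 8.91, between the other lines. ABCA3, a lipid transporter, went from 7.06 and 7.20 to 9.72 and 9.17, a rise of 2.31 ± 0.19 (adjusted p = 0.00296). BDKRB1, the inducible bradykinin receptor, went from 8.76 and 7.94 to 10.74 and 10.76, a rise of 2.40 ± 0.29 (adjusted p = 0.00699). In all 4 genes the lines were separated by more than the gap between replicates, which was widest for BDKRB1 in BJEL.

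Further rises of this size were those of RAB3A, a GTPase of regulated exocytosis (2.16 ± 0.12 (adjusted p = 0.00117)), STEAP1, a membrane protein of the metalloreductase family (2.03 ± 0.23 (adjusted p = 0.00587)), FAM117B (2.01 ± 0.15 (adjusted p = 0.00209)) and TTYH2, a member of the tweety family of membrane proteins (1.86 ± 0.15 (adjusted p = 0.0024)). NRP2, a co-receptor for semaphorins and VEGF, went from 6.79 and 6.58 to 8.75 and 8.48, a rise of 1.93 ± 0.15 (adjusted p = 0.0025). Each of these 5 genes passed whichever array was left out. Calls that depended on single arrays included that of IGFBP2, a binding protein for insulin-like growth factors (1.87 ± 0.39 (adjusted p = 0.0331)), lost without BJEL replicate 1 (1.92, adjusted p = 0.143) and without BJEL replicate 2 (1.82, adjusted p = 0.131) and without BJELM replicate 1 (1.36, adjusted p = 0.0691). They also included those of NPW, which encodes neuropeptide W (2.17 ± 0.32 (adjusted p = 0.0125)), lost without BJEL replicate 1 (1.98, adjusted p = 0.0794), and of PLTP, a phospholipid transfer protein (1.97 ± 0.32 (adjusted p = 0.0154)), lost without BJEL replicate 1 (2.22, adjusted p = 0.0553) and without BJEL replicate 2 (1.73, adjusted p = 0.0788).

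**Figure D3:**
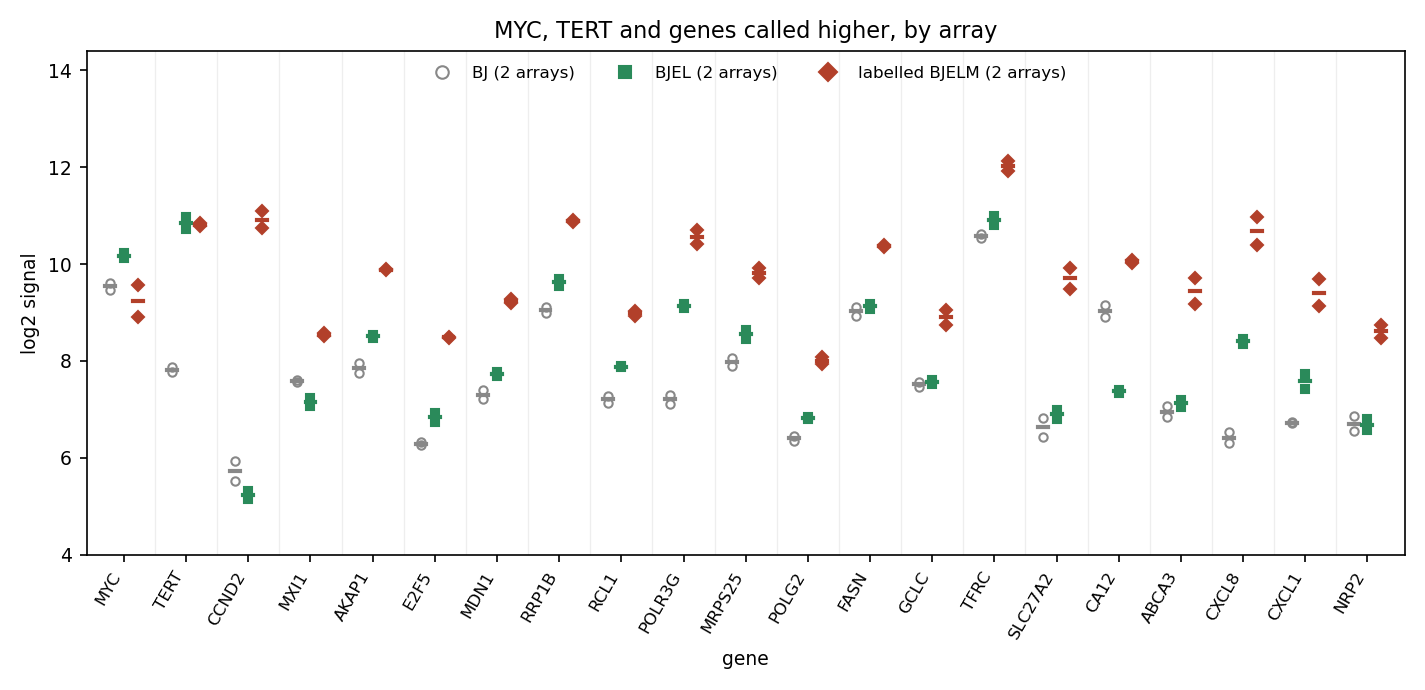
Log2 signal of MYC, TERT and 19 genes that rose, on each of the 6 arrays. Grey circles are BJ, green squares BJEL and red diamonds the arrays labelled BJELM, with a short line at the mean of each pair. In the 19 genes both red diamonds lie above both green squares, by 5.68 for CCND2, while MYC runs the other way and TERT is level between BJEL and BJELM.

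Within the MYC and MAX network, 1 of 13 measured genes rose and 0 fell, with a median difference of 0.07. The gene that rose was MXI1, which encodes an antagonist that competes with MYC for MAX. It read 7.24 and 7.07 on the BJEL arrays and 8.58 and 8.51 on the arrays labelled BJELM, and rose by 1.39 ± 0.094 (adjusted p = 0.00177). The values of both lines were tight, and the BJ arrays read 7.61 and 7.56.

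Genes of ribosome biogenesis had mostly positive differences, few of which reached 2-fold. Of 107 measured genes 101 had a positive difference, against 10394 of 18417 over all genes, the median was 0.36 against 0.03 over all genes, and 5 rose (4.67%, against 0.923%) while 0 fell. A further 28 had an adjusted p under 0.05 with a positive difference under 2-fold, so 33 passed at any fold (against 4.53% of all genes). With quantile normalization or median centring, 103 of the 107 differences were positive. MDN1, the large ATPase that strips assembly factors from pre-60S particles, read 7.69 and 7.77 on the BJEL arrays and 9.19 and 9.27 on the arrays labelled BJELM, and rose by 1.50 ± 0.099 (adjusted p = 0.00166). RRP1B, a nucleolar processing factor, went from 9.70 and 9.54 to 10.90 and 10.88, a rise of 1.27 ± 0.095 (adjusted p = 0.00211). RCL1, which acts in early processing of the small subunit RNA, went from 7.87 and 7.89 to 9.03 and 8.93, a rise of 1.10 ± 0.093 (adjusted p = 0.00304). These 3 genes kept their calls whichever array was left out. NOP16 rose by 1.09 ± 0.15 (adjusted p = 0.00967) and lost its call without BJEL replicate 1 (1.02, adjusted p = 0.0678) and without BJELM replicate 2 (0.90, adjusted p = 0.0301). PDCD11 rose by 1.07 ± 0.096 (adjusted p = 0.00355) and was under 2-fold without BJELM replicate 2 (0.98). A second PDCD11 probe set, of lower signal, differed by 0.34 and did not pass (adjusted p = 0.336 in a limma fit of every probe set).

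Not all known nucleolar genes were called. FBL, the rRNA 2'-O-methyltransferase fibrillarin, differed by 0.56 ± 0.12 (adjusted p = 0.04), NPM1, nucleophosmin, by 0.23 ± 0.13 (adjusted p = 0.346), and NCL, nucleolin, by 0.22 ± 0.17 (adjusted p = 0.499). Among genes singled out by the study, NOLC1, a nucleolar phosphoprotein, read 10.73 and 10.66 on the BJEL arrays and 11.29 and 11.43 on the arrays labelled BJELM, a difference of 0.66 ± 0.10 (adjusted p = 0.014), and DHX33, an RNA helicase of rRNA transcription, read 9.63 and 9.52 on the BJEL arrays and 10.63 and 10.46 on the arrays labelled BJELM, a difference of 0.97 ± 0.098 (adjusted p = 0.00471). Both were above BJEL on both arrays, with changes under 2-fold. HEATR1, an rRNA processing factor, differed by 0.71 ± 0.12 (adjusted p = 0.0181).

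RNA polymerases I and III transcribe ribosomal RNA and small RNAs such as tRNA. Of 35 measured subunits and factors 2 rose and 0 fell, with a median of 0.17, and 9 passed at any fold with a positive difference. POLR3G, an alternative subunit of RNA polymerase III typical of undifferentiated cells, read 9.09 and 9.17 on the BJEL arrays and 10.42 and 10.71 on the arrays labelled BJELM, and rose by 1.43 ± 0.13 (adjusted p = 0.00361). Its BJ values were 7.11 and 7.31, so the level climbed at each step of the series. POLR1C, shared by both polymerases, rose by 1.10 ± 0.15 (adjusted p = 0.00914) and lost its call without BJEL replicate 1 (1.14, adjusted p = 0.0564) and without BJEL replicate 2 (1.07, adjusted p = 0.0546) and without BJELM replicate 1 (0.90, adjusted p = 0.0171). Among the proteins of the cytosolic ribosome 58 of 62 differences were positive, but by small amounts: the median was 0.14, 0 were called, 1 passed at any fold and 11 had an unadjusted limma p under 0.05.

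**Figure D4:**
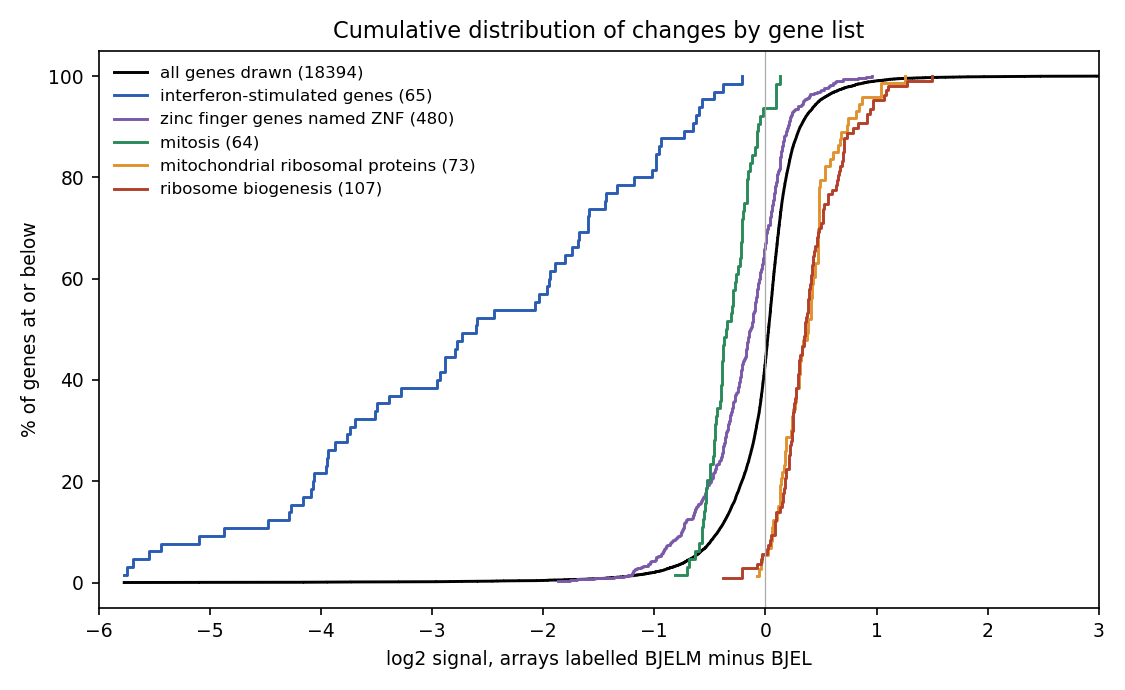
Cumulative distribution of the log2 difference, arrays labelled BJELM minus BJEL, for all genes drawn and for 5 gene lists, with the number of genes in brackets. The x axis is the log2 difference and the y axis the percentage of genes at or below it. The curves for ribosome biogenesis and mitochondrial ribosomal proteins lie to the right of that for all genes (medians 0.36, 0.38 and 0.03), that for mitosis lies to the left (median -0.35), and the interferon-stimulated genes spread from -5.77 to just below 0.

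The E-box CACGTG, a palindrome that reads alike on both strands, was searched in the promoters of RefSeq genes (GRCh38.p14), each taken from 250 bases before to 50 after the start of the gene. Promoters were matched for 14219 of the genes. The motif was in 1263 of them (8.9%), in 19 of 139 promoters of genes that rose (13.7%) and in 10 of 238 of genes that fell (4.2%). It was in 35 of 89 promoters of ribosome biogenesis genes (39.3%) and in 7 of 29 of RNA polymerase I and III genes (24.1%). The share did not follow the list medians throughout. It was 5 of 11 for HOX genes (45.5%, median 0.01) and 9 of 32 for lysosome and autophagy genes (28.1%, median -0.33). For mitochondrial ribosomal proteins, with a median of 0.38, it was 6 of 66 (9.1%). Within the ribosome biogenesis list the median difference was 0.36 for the 35 genes with the motif and 0.33 for the 54 without it, so the 2 groups were close. The presence of the letters describes the promoter and is not a measurement of binding. The stretches below show the E-box in its context upstream of MDN1 and of 4 other genes that rose, chosen after their values were seen, with the motif in capitals.
MDN1, chr6:89819909-89819984, minus strand: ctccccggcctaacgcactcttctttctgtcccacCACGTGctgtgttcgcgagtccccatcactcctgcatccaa
TAF4B, chr18:26226227-26226302, plus strand: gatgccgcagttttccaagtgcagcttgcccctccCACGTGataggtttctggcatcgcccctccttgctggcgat
EEF2K, chr16:22206184-22206259, plus strand: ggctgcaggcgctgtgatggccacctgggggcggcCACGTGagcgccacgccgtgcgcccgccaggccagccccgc
CIPC, chr14:77098155-77098230, plus strand: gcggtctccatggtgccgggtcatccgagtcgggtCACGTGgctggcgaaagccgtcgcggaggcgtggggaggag
GAA, chr17:80101470-80101580, plus strand: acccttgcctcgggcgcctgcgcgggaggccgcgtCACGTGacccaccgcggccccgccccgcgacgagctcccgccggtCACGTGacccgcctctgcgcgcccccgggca

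TAF4B, a cell-type-restricted subunit of the general transcription factor TFIID, went from 6.50 and 6.29 to 8.38 and 8.62, a rise of 2.10 ± 0.12 (adjusted p = 0.0012). EEF2K, the kinase that slows translation elongation, rose by 1.43 ± 0.091 (adjusted p = 0.00156), and CIPC, a repressor of the circadian CLOCK protein, by 1.45 ± 0.12 (adjusted p = 0.00271). GAA, the lysosomal acid alpha-glucosidase, has 2 E-boxes in the stretch shown and rose by 1.12 ± 0.14 (adjusted p = 0.00737). It is not in the list of lysosome and autophagy genes, of which 1 of 46 fell and 0 rose, with a median of -0.33. The gene that fell, SCARB2, a lysosomal membrane protein, differed by -1.16 ± 0.12 (adjusted p = 0.00468).

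Mitochondrial genes of protein synthesis also had mostly positive differences. Of 73 mitochondrial ribosomal proteins 69 had a positive difference, against 10394 of the 18417 genes, with a median of 0.38, and 3 rose while 0 fell. In all, 18 passed at any fold with a positive difference. MRPS25 read 8.65 and 8.46 on the BJEL arrays and 9.91 and 9.71 on the arrays labelled BJELM, and rose by 1.25 ± 0.12 (adjusted p = 0.00423). MRPS23 rose by 1.04 ± 0.091 (adjusted p = 0.00346) and MRPS17 by 1.04 ± 0.094 (adjusted p = 0.00371), both at the edge of 2-fold. They were under it without BJELM replicate 2 (0.96, adjusted p = 0.017) for MRPS23, and without BJEL replicate 2 (0.998, adjusted p = 0.0249) and without BJELM replicate 1 (0.98, adjusted p = 0.0143) for MRPS17. Of 40 genes of mitochondrial biogenesis and import 2 rose and 0 fell, with a median of 0.37. POLG2, the accessory subunit of the mitochondrial DNA polymerase, went from 6.84 and 6.81 to 7.94 and 8.08, a rise of 1.18 ± 0.092 (adjusted p = 0.00234), and TRAP1, the mitochondrial HSP90 chaperone, from 10.80 and 10.49 to 12.01 and 11.58, a rise of 1.15 ± 0.18 (adjusted p = 0.0153). TRAP1 lost its call without BJEL replicate 1 (adjusted p = 0.0542) and without BJEL replicate 2 (0.99, adjusted p = 0.0777) and without BJELM replicate 1 (0.93, adjusted p = 0.0389). A second TRAP1 probe set, of lower signal, differed by 0.15 and did not pass (adjusted p = 0.602 in a limma fit of every probe set). AKAP1, which anchors protein kinase A and mRNAs to the outer mitochondrial membrane, read 8.48 and 8.53 on the BJEL arrays and 9.89 and 9.88 on the arrays labelled BJELM, and rose by 1.38 ± 0.099 (adjusted p = 0.0019). Of 70 subunits of the respiratory chain 0 were called, 17 had an unadjusted limma p under 0.05, 55 differences were positive and the median was 0.12.

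In intermediary metabolism few genes reached 2-fold. Of 20 genes of fatty acid synthesis and elongation 1 rose, with a median of 0.01. Among 30 NRF2 and antioxidant genes 2 rose (median 0.01), and among 12 of iron uptake and storage 2 (median -0.07). In polyamine metabolism 0 of 16 rose (median 0.19). None of these 4 lists held a gene that fell. Nucleotide synthesis had 0 of 35 genes called, yet 11 passed at any fold with a positive difference (median 0.21), among them CAD, the enzyme that starts pyrimidine synthesis (9.07 and 9.07 to 9.89 and 9.81, a difference of 0.78 ± 0.095 (adjusted p = 0.00731)). ODC1, the first enzyme of polyamine synthesis, differed by 0.87 ± 0.093 (adjusted p = 0.00543), under 2-fold. FASN, the fatty acid synthase, read 9.08 and 9.18 on the BJEL arrays and 10.36 and 10.39 on the arrays labelled BJELM, and rose by 1.24 ± 0.099 (adjusted p = 0.00249). GCLC, the catalytic subunit of the enzyme that limits glutathione synthesis, went from 7.60 and 7.53 to 8.75 and 9.06, a rise of 1.34 ± 0.12 (adjusted p = 0.00371). TFRC, the transferrin receptor of iron uptake, went from 10.81 and 10.998 to 11.93 and 12.12, a rise of 1.12 ± 0.11 (adjusted p = 0.00446). These 3 kept their calls whichever array was left out. SOD2, the mitochondrial superoxide dismutase, rose by 1.08 ± 0.12 (adjusted p = 0.00556) and was under 2-fold without BJELM replicate 1 (0.93, adjusted p = 0.0133). Of 23 genes of glycolysis and lactate export 0 were called and 4 had an unadjusted limma p under 0.05, and LDHA, a lactate dehydrogenase subunit, differed by 0.03 ± 0.082 (adjusted p = 0.891).

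The broadest change was a fall of interferon-stimulated genes. Of 65 measured, 47 fell (72.3%, against 1.76% of all genes) and 0 rose, all 65 differences were negative, and the median was -2.61. The count lay between 39, without BJELM replicate 2, and 54, without BJEL replicate 2. Leaving aside genes under the median level of 7.26, the 15 largest falls were all of this kind. Of the 75 genes that fell at least 4-fold, 43 were in the lists of interferon-stimulated genes, nucleic acid sensing or class I antigen presentation. In bulk RNA, fewer expressing cells and less RNA per cell cannot be told apart.

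MX1 (Entrez 4599, probe set 8068713, chromosome 21), a GTPase that blocks influenza virus, read 12.09 and 10.96 on the BJEL arrays and 5.92 and 5.74 on the arrays labelled BJELM, and fell by 5.69 ± 0.39 (adjusted p = 0.00181), about 51.7-fold. MX2, its relative active against retroviruses, read 11.82 and 9.95 on the BJEL arrays and 5.62 and 5.27 on the arrays labelled BJELM, and fell by 5.44 ± 0.57 (adjusted p = 0.00509). BST2, the tetherin that holds budding virions on the cell, read 11.40 and 10.30 on the BJEL arrays and 6.997 and 6.13 on the arrays labelled BJELM, and fell by 4.28 ± 0.42 (adjusted p = 0.00424). In each gene the lowest BJEL array was more than 3 log2 units above the highest array labelled BJELM.

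The oligoadenylate synthetases detect double-stranded RNA and activate RNase L. OAS2 read 12.19 and 11.36 on the BJEL arrays and 6.34 and 6.12 on the arrays labelled BJELM, and fell by 5.55 ± 0.32 (adjusted p = 0.0012). OAS1 fell by 5.10 ± 0.57 (adjusted p = 0.00587), OAS3 fell by 4.09 ± 0.28 (adjusted p = 0.00181) and the related OASL fell by 3.87 ± 0.42 (adjusted p = 0.00556). The IFIT proteins bind foreign RNA ends and block translation. IFIT1 read 11.79 and 10.96 on the BJEL arrays and 6.68 and 6.33 on the arrays labelled BJELM, and fell by 4.87 ± 0.27 (adjusted p = 0.0012), IFIT2 fell by 4.47 ± 0.27 (adjusted p = 0.0012) and IFIT3 fell by 4.07 ± 0.24 (adjusted p = 0.0012). On the BJ arrays IFIT1 read 9.56 and 9.41, between the other lines, whereas OAS2 read 7.10 and 6.44, close to the arrays labelled BJELM.

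RSAD2, which encodes viperin, read 11.50 and 9.94 on the BJEL arrays and 5.04 and 4.86 on the arrays labelled BJELM, and IFI44L read 11.22 and 10.07 on the BJEL arrays and 5.01 and 4.80 on the arrays labelled BJELM. RSAD2 fell by 5.77 ± 0.46 (adjusted p = 0.0024) and IFI44L fell by 5.74 ± 0.34 (adjusted p = 0.0012), and both were near the low end of the scale on the arrays labelled BJELM. USP18, an ISG15 protease that restrains interferon signalling, fell by 3.74 ± 0.44 (adjusted p = 0.00686), SAMD9L fell by 4.27 ± 0.22 (adjusted p = 0.00117), HERC6, an ubiquitin ligase, fell by 3.96 ± 0.28 (adjusted p = 0.0019), and IFI27 fell by 3.95 ± 0.35 (adjusted p = 0.00355). XAF1, a pro-apoptotic gene, fell by 4.06 ± 0.50 (adjusted p = 0.00753), and its call was lost without BJEL replicate 1 (-3.62, adjusted p = 0.0506). Of the 18 members that were not called, ISG15 itself read 9.61 and 8.19 on the BJEL arrays and 7.17 and 7.16 on the arrays labelled BJELM, a difference of -1.74 ± 0.42 (adjusted p = 0.0526), and CXCL10 differed by -1.69 ± 0.44 (adjusted p = 0.0657). The BJEL arrays differed by more than 1 log2 unit in both genes.

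The replicates differed from each other in this list, with the widest gap between medians in BJEL. BJEL replicate 1 was above replicate 2 in 65 of 65 genes, against 9528 of 18417 over all genes, and the median level was 10.59 on the first and 9.77 on the second. The medians on the arrays labelled BJELM were 7.05 and 6.81, and those on the BJ arrays 7.67 and 7.55. BJELM replicate 1 was above replicate 2 in 55 of the 65 genes, against 10671 of 18417 over all genes. The mean of the arrays labelled BJELM was below that of BJ in 45 of the 65 genes. The part of this replicate gap in the result was not tested beyond leaving out each array, which left 42 genes called without BJEL replicate 1.

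**Figure D5:**
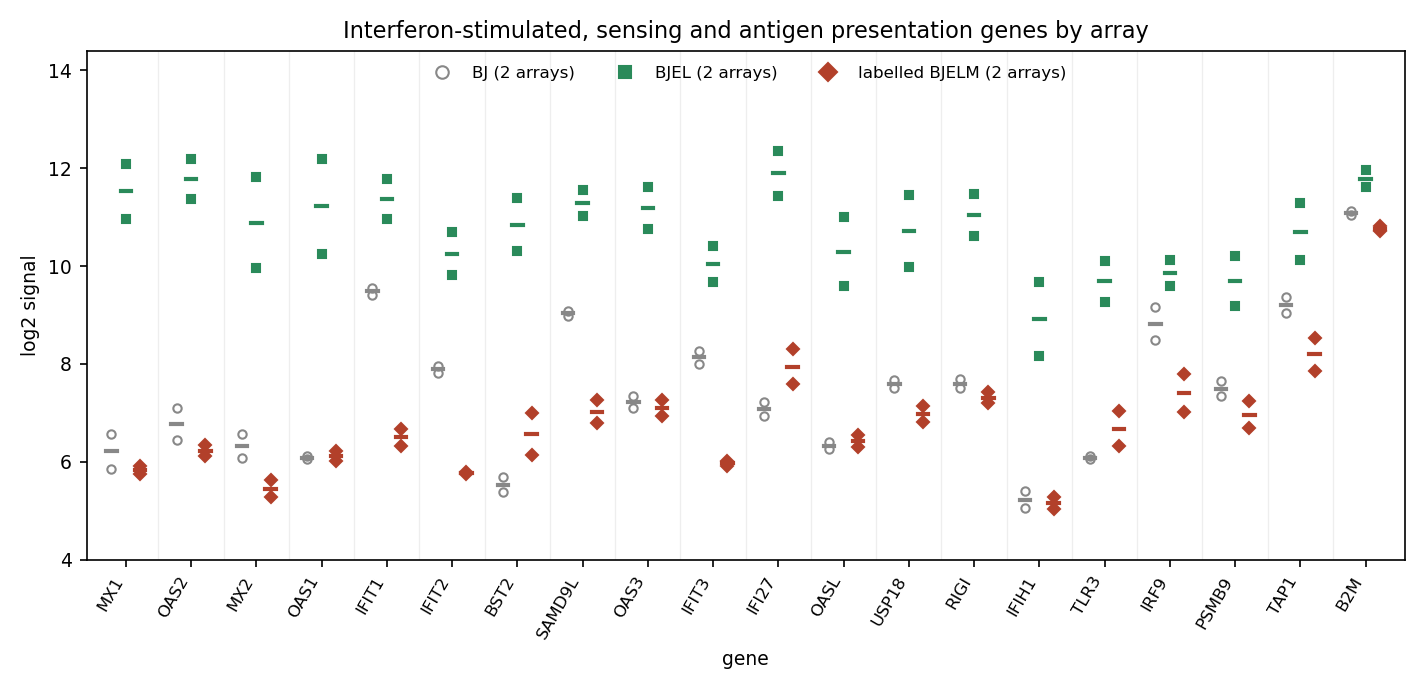
Log2 signal of 20 interferon-stimulated, sensing and antigen presentation genes on each of the 6 arrays. Grey circles are BJ, green squares BJEL and red diamonds the arrays labelled BJELM, with a short line at the mean of each pair. Both red diamonds lie below both green squares in all 20 genes, and in 12 of the 20, among them IFIT1, MX2, RIGI and B2M, they also lie below both BJ circles.

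The core of the interferon-stimulated response element, GAAA followed by any 2 bases and a second GAAA, was searched on both strands of the same promoters. On the other strand it reads as a TTTC repeat, and matches may overlap each other or an E-box. The repeat was in 432 of 14219 promoters (3.0%), in 41 of 238 of genes that fell (17.2%) and in 2 of 139 of genes that rose (1.4%). It was in 32 of 50 promoters of interferon-stimulated genes (64.0%) and in 8 of 14 of class I antigen presentation genes (57.1%). Of the 32 interferon-stimulated genes with the repeat 24 fell, with a median of -2.88, and of the 18 without it in this window 13 fell, with a median of -2.21. Stretches of 6 promoters whose genes fell are shown with the matches in capitals, to show how the repeat lies on either strand.
IFIT1, chr10:89392472-89392564, plus strand: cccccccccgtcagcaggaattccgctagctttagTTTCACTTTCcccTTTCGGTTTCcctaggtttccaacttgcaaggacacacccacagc
IFIT3, chr10:89327806-89327919, plus strand: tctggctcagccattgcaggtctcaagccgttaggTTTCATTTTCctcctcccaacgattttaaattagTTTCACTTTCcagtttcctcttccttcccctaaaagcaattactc
OAS3, chr12:112938296-112938375, plus strand: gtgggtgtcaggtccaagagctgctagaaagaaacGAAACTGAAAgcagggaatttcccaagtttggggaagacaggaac
BST2, chr19:17405710-17405795, minus strand: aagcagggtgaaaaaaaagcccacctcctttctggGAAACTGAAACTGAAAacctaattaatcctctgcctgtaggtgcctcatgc
HERC5, chr4:88456959-88457089, plus strand: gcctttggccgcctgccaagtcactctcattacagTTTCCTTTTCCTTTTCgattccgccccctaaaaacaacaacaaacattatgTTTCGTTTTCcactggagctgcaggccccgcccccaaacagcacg
DDX60, chr4:168318761-168318875, minus strand: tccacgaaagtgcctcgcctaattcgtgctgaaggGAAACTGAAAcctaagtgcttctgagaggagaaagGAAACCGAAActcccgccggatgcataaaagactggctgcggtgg

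IFIT1, IFIT3 and HERC5 show the match as TTTC repeats, that is on the opposite strand, while OAS3, BST2 and DDX60 show GAAA repeats. HERC5, the ligase that attaches ISG15 to proteins, fell by 3.94 ± 0.41 (adjusted p = 0.00519), and DDX60, an RNA helicase that aids RIG-I, fell by 3.69 ± 0.15 (adjusted p = 0.00057).

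Part of the sensing and signalling machinery of the interferon response fell as well. Of 31 genes of nucleic acid sensing and interferon signalling 9 fell, 0 rose and 22 were not called, with a median of -0.43, and 5 fell without BJEL replicate 1. IFIH1, which encodes the double-stranded RNA sensor MDA5, read 9.67 and 8.17 on the BJEL arrays and 5.27 and 5.03 on the arrays labelled BJELM, and fell by 3.77 ± 0.45 (adjusted p = 0.00704). RIGI, the sensor of RNA 5' ends, went from 11.47 and 10.62 to 7.43 and 7.19, a log2 difference of -3.73 ± 0.27 (adjusted p = 0.0019). TLR3, the endosomal sensor of double-stranded RNA, went from 10.11 and 9.26 to 7.03 and 6.32, a log2 difference of -3.01 ± 0.33 (adjusted p = 0.00556). DHX58, which encodes LGP2, fell by 2.35 ± 0.29 (adjusted p = 0.00753). These 4 sensors were below BJEL on both arrays by more than the replicate gap. IRF9, the DNA-binding subunit of the interferon-activated complex ISGF3, fell by 2.44 ± 0.34 (adjusted p = 0.0105), and its call was lost without BJEL replicate 1 (-2.18, adjusted p = 0.0663). TLR4, the receptor for bacterial lipopolysaccharide, went from 7.34 and 6.83 to 5.73 and 5.52, a log2 difference of -1.46 ± 0.19 (adjusted p = 0.00829).

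Class I antigen presentation displays peptides on the cell surface. Of 15 measured genes 6 fell and 0 rose, all 15 differences were negative, and the median was -0.91. The count was 3 without BJEL replicate 1 and 3 without BJELM replicate 2. PSMB9, an immunoproteasome subunit, read 10.21 and 9.19 on the BJEL arrays and 7.24 and 6.69 on the arrays labelled BJELM, and fell by 2.73 ± 0.35 (adjusted p = 0.00842). PSMB8, another such subunit, fell by 1.998 ± 0.24 (adjusted p = 0.00746). Both passed whichever array was left out. TAP1, a subunit of the peptide transporter, fell by 2.50 ± 0.40 (adjusted p = 0.0156), with the call lost without BJELM replicate 2 (-2.16, adjusted p = 0.0654). B2M, the light chain of every class I molecule, read 11.97 and 11.61 on the BJEL arrays and 10.81 and 10.71 on the arrays labelled BJELM, and fell by 1.03 ± 0.14 (adjusted p = 0.00891), but was under 2-fold without BJEL replicate 1 (-0.85, adjusted p = 0.0366) and without BJELM replicate 2 (-0.98, adjusted p = 0.0435). Of 38 subunits of the proteasome 0 were called and 5 had an unadjusted limma p under 0.05, with a median of 0.02.

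Cytokines and chemokines moved in both directions. Of 38 measured, 3 rose and 5 fell, with a median of 0.04. CXCL8, which encodes interleukin 8, a neutrophil attractant, read 8.35 and 8.45 on the BJEL arrays and 10.97 and 10.40 on the arrays labelled BJELM, and rose by 2.28 ± 0.19 (adjusted p = 0.00304). CXCL1, with a like role, went from 7.73 and 7.43 to 9.69 and 9.12, a rise of 1.83 ± 0.20 (adjusted p = 0.00558). IL1B, an early inflammatory cytokine, went from 6.02 and 5.69 to 8.96 and 7.95, a rise of 2.60 ± 0.39 (adjusted p = 0.0128), with the call lost without BJEL replicate 1 (2.77, adjusted p = 0.0634) and without BJEL replicate 2 (2.44, adjusted p = 0.0703). CXCL12, a chemokine of fibroblasts, read 10.70 and 10.61 on the BJEL arrays and 8.89 and 7.64 on the arrays labelled BJELM, and fell by 2.39 ± 0.37 (adjusted p = 0.0142), with the call lost without BJEL replicate 1 (-2.34, adjusted p = 0.0851) and without BJEL replicate 2 (-2.43, adjusted p = 0.068). CXCL11, an interferon-induced T cell attractant, fell by 1.96 ± 0.30 (adjusted p = 0.0136), with the call lost without BJELM replicate 2 (-1.81, adjusted p = 0.0612). The number that fell was 1 without BJELM replicate 2, 3 without either BJ array, BJEL replicate 1 or BJELM replicate 1, and 7 without BJEL replicate 2.

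No gene of the replication and mitosis lists was called, where 2.68% of all genes were. DNA replication and S phase had 0 of 57 genes called and a median of 0.01, with 12 at an unadjusted limma p under 0.05. Mitosis had 0 of 64 called, with 28 at an unadjusted p under 0.05. Only 4 of the 64 differences were positive, the median was -0.35, and 10 passed at any fold with a negative difference. CENPI, a centromere protein, differed by -0.81 ± 0.13 (adjusted p = 0.0145), and ANLN, which encodes the cytokinesis protein anillin, by -0.64 ± 0.12 (adjusted p = 0.0253). MKI67, the proliferation antigen, read 10.82 and 11.10 on the BJEL arrays and 10.37 and 10.36 on the arrays labelled BJELM, a difference of -0.59 ± 0.17 (adjusted p = 0.0812) that did not pass. PLK1, a mitotic kinase, differed by -0.12 ± 0.11 (adjusted p = 0.573). Quantile normalization and median centring left the median of the list at -0.30 and -0.31.

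Among E2F factors, which drive S phase genes, 1 of 17 genes of the list rose and 1 fell. E2F5, a repressive member, read 6.93 and 6.74 on the BJEL arrays and 8.47 and 8.50 on the arrays labelled BJELM, and rose by 1.65 ± 0.097 (adjusted p = 0.0012). E2F8, an atypical repressor, went from 8.39 and 8.53 to 7.46 and 7.01, a log2 difference of -1.22 ± 0.16 (adjusted p = 0.00837), with the call lost without BJEL replicate 2 (-1.16, adjusted p = 0.0515). The median of the list was -0.27, with a positive difference in 4 of the 17 genes, and at any fold 1 passed with a positive and 3 with a negative difference.

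Of 17 genes of the BCL2 family 2 fell and 0 rose, with a median of 0.11, and of 16 genes of the TRAIL death receptor pathway 2 fell and 0 rose, with a median of -0.22, where 1.76% of all genes fell. Leaving out 1 array left 0 to 1 of the BCL2 family and 1 to 3 of the TRAIL pathway lower. In the TRAIL pathway TNFRSF11B, which encodes osteoprotegerin, a decoy for TRAIL and RANK ligand, read 8.56 and 8.47 on the BJEL arrays and 7.21 and 6.75 on the arrays labelled BJELM, and fell by 1.54 ± 0.16 (adjusted p = 0.00482). Its BJ arrays read 12.22 and 12.29, so that the level dropped at each step of the series. CFLAR, an inhibitor of caspase 8 activation, fell by 1.01 ± 0.20 (adjusted p = 0.0318), with the call lost without BJEL replicate 1 (-0.82, adjusted p = 0.161) and without BJEL replicate 2 (-1.20, adjusted p = 0.0623) and without BJELM replicate 2 (-0.80, adjusted p = 0.113). In the BCL2 family BCL2L1, an inhibitor of apoptosis, fell by 1.07 ± 0.11 (adjusted p = 0.00468) and was under 2-fold without BJEL replicate 2 (-0.999, adjusted p = 0.0291) and without BJELM replicate 2 (-0.97, adjusted p = 0.0201). PMAIP1, which encodes the pro-apoptotic protein NOXA, fell by 1.13 ± 0.23 (adjusted p = 0.0326), and was called in only 1 of the 6 fits that left out an array, that without BJEL replicate 2, with adjusted p between 0.0512 and 0.125 in the others. FAS, a death receptor and p53 target, fell by 1.01 ± 0.13 (adjusted p = 0.00904), with the call lost without BJEL replicate 1 (-0.93, adjusted p = 0.0636) and without BJELM replicate 2 (-0.90, adjusted p = 0.0403). FAS was 1 of 29 measured p53 targets, of which 0 rose, with a median of -0.18.

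Genes of the fibroblast's matrix and identity showed a small number of strong falls rather than a common shift. The labelled cell type was checked against 30 fibroblast genes: their median level was 9.19 and 9.16 on the BJEL arrays and 8.24 and 8.30 on the arrays labelled BJELM. Of these 30 genes 4 fell and 0 rose, with a median difference of -0.05, and 2 fell without BJEL replicate 1. TBX15, a mesenchymal transcription factor, read 9.09 and 8.69 on the BJEL arrays and 6.44 and 6.44 on the arrays labelled BJELM, and fell by 2.45 ± 0.14 (adjusted p = 0.0012). NT5E, the surface enzyme CD73, read 10.98 and 10.44 on the BJEL arrays and 8.23 and 8.45 on the arrays labelled BJELM, and fell by 2.37 ± 0.18 (adjusted p = 0.00222). OSR1, a factor of connective tissue, fell by 1.07 ± 0.12 (adjusted p = 0.00596), and was under 2-fold without BJEL replicate 1 (-0.92, adjusted p = 0.0311).

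Of 70 matrix genes other than collagens 6 fell and 0 rose, with a median of -0.12. HAS2, a hyaluronan synthase, read 10.87 and 10.47 on the BJEL arrays and 7.55 and 7.22 on the arrays labelled BJELM, and fell by 3.28 ± 0.23 (adjusted p = 0.0019). Its BJ arrays read 10.47 and 9.90, near BJEL. ECM1 went from 9.87 and 9.87 to 8.29 and 7.72, a log2 difference of -1.87 ± 0.19 (adjusted p = 0.00468), and CEMIP, which degrades hyaluronan, from 6.78 and 6.58 to 5.37 and 5.31, a log2 difference of -1.34 ± 0.12 (adjusted p = 0.00346). All 3 passed whichever array was left out. FBLN1, fibulin 1, fell by 1.38 ± 0.21 (adjusted p = 0.0143), with the call lost without BJEL replicate 1 (-1.11, adjusted p = 0.0651) and without BJELM replicate 2 (-1.16, adjusted p = 0.0556). The number that fell was 3 without BJEL replicate 1, 3 without BJELM replicate 2 and 10 without BJELM replicate 1. Of 43 collagens 0 were called, with 7 at an unadjusted limma p under 0.05, and COL1A1, the main collagen of fibroblasts, read 10.85 and 11.01 on the BJEL arrays and 11.33 and 10.86 on the arrays labelled BJELM, a difference of 0.16 ± 0.16 (adjusted p = 0.605). THBS1, thrombospondin 1, differed by -0.63 ± 0.079 (adjusted p = 0.00782), under 2-fold.

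Few genes in the lists of secreted regulators and their receptors reached 2-fold, but more passed at any fold. In TGF-beta and BMP signalling 7 of 41 passed at any fold with a negative difference and 1 with a positive one. Of 41 growth factor receptors and ligands 10 and 2 did so, where 6.28% and 4.53% of all genes did. Of 41 genes of TGF-beta and BMP signalling 3 fell and 0 rose, with a median of -0.12, and 1 fell without BJEL replicate 1 or without BJELM replicate 2. FST, follistatin, which binds activin, read 10.21 and 9.93 on the BJEL arrays and 7.66 and 7.49 on the arrays labelled BJELM, and fell by 2.49 ± 0.12 (adjusted p = 0.00114). BMP4, a growth factor of the same family, fell by 2.35 ± 0.44 (adjusted p = 0.0247), with the call lost without BJEL replicate 1 (-1.88, adjusted p = 0.123) and without BJELM replicate 2 (-1.86, adjusted p = 0.0857). SERPINE2, a protease inhibitor of the matrix, went from 9.82 and 9.76 to 8.37 and 8.04, a log2 difference of -1.59 ± 0.13 (adjusted p = 0.0026). It was among 3 that fell of 42 matrix proteases and inhibitors, of which 1 rose, with a median of -0.26. IGFBP7, a binding protein for insulin-like growth factors, fell by 1.81 ± 0.23 (adjusted p = 0.0083). Of the 41 growth factor receptors and ligands 3 fell and 1 rose, IGFBP2, with a median of -0.09. In the WNT pathway, where 1 of 36 genes rose and 1 fell, the receptor FZD5 went from 6.27 and 6.29 to 7.35 and 7.45, a rise of 1.12 ± 0.083 (adjusted p = 0.00209), and the secreted antagonist DKK1 from 12.32 and 12.42 to 11.20 and 11.18, a log2 difference of -1.18 ± 0.13 (adjusted p = 0.00559).

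Angiogenesis genes were divided at 2-fold but more often lower at any fold. Of 16 promoting genes 7 passed at any fold with a negative difference and 2 with a positive one. For 14 inhibitors these counts were 3 and 1, where the shares over all genes were 6.28% and 4.53%. Of 16 promoting genes 2 rose, CXCL8 and NRP2, and 3 fell, with a median of -0.10. FLT1, a VEGF receptor, read 8.22 and 8.07 on the BJEL arrays and 6.21 and 5.81 on the arrays labelled BJELM, and fell by 2.14 ± 0.15 (adjusted p = 0.00181). ANGPT1, angiopoietin 1, went from 7.39 and 7.70 to 5.74 and 5.53, a log2 difference of -1.91 ± 0.15 (adjusted p = 0.00222). EPAS1, the hypoxia factor HIF-2 alpha, fell by 1.36 ± 0.22 (adjusted p = 0.0154), with the call lost without BJEL replicate 1 (-1.35, adjusted p = 0.0893) and without BJEL replicate 2 (-1.36, adjusted p = 0.076). Of 14 inhibitors 1 fell, SEMA3A, a repulsive guidance ligand for neuropilins, from 10.21 and 9.75 to 8.16 and 7.90, a log2 difference of -1.95 ± 0.18 (adjusted p = 0.00371). L1CAM, an adhesion molecule, went from 9.17 and 9.04 to 7.11 and 6.56, a log2 difference of -2.27 ± 0.22 (adjusted p = 0.00422). Of 30 cadherins and junctional molecules it alone fell and 2 rose, with a median of 0.003.

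Of 20 genes of feedback on the ERK kinases 2 fell and 0 rose, with a median of -0.09. DUSP10, a phosphatase of stress kinases, went from 9.75 and 9.60 to 8.33 and 8.41 (adjusted p = 0.00371), and SPRY4, an inhibitor of receptor tyrosine kinase signalling, from 8.28 and 8.17 to 7.03 and 7.04, a log2 difference of -1.19 ± 0.11 (adjusted p = 0.00376). Of 26 immediate-early and AP-1 factors 1 fell and 0 rose, with a median of -0.20. EGR1, an immediate-early factor that ERK induces, read 11.49 and 11.11 on the BJEL arrays and 9.87 and 9.97 on the arrays labelled BJELM, and fell by 1.37 ± 0.19 (adjusted p = 0.00969), with the call lost without BJEL replicate 1 (-1.19, adjusted p = 0.0571).

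Zinc finger genes named ZNF, many of which encode KRAB repressors of transposons, were lower more often than higher. Of 480 measured genes 20 fell (4.17%, against 1.76%) and 0 rose, the median was -0.14, and 11 fell without BJEL replicate 1. At any fold 80 passed with a negative difference and 11 with a positive one. Of the 20 that fell 17 were on chromosome 19, where 233 of the 480 lie, and 3 on other chromosomes. The median was -0.29 for the 233 genes, -0.05 for the 247 elsewhere, and 0.06 for the 1075 other genes of chromosome 19, of which 5 fell. ZNF415 read 7.89 and 7.33 on the BJEL arrays and 5.79 and 5.70 on the arrays labelled BJELM, and fell by 1.87 ± 0.19 (adjusted p = 0.00482). ZNF730 fell by 1.76 ± 0.21 (adjusted p = 0.00686), ZNF506 fell by 1.37 ± 0.096 (adjusted p = 0.0019) and ZNF91, which represses SVA and L1 elements, fell by 1.28 ± 0.14 (adjusted p = 0.00568). These genes are close in sequence, and probes shared between them could not be told apart.

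In the chromatin lists few genes were called, as few were over all genes (2.68%). Of 52 writers, 42 erasers and 31 polycomb proteins 0 were called. At an unadjusted limma p under 0.05 were 14, 15 and 11 of them, against 4687 of the 18417 genes. At any fold 8 writers passed with a positive difference and 1 with a negative one. For erasers these counts were 2 and 3, and for polycomb proteins 3 and 3. Of 62 remodelers and readers 1 rose and 0 fell, and at any fold 6 and 3 passed. Over all genes the shares were 4.53% and 6.28%. The arginine methyltransferase PRMT5 differed by 0.71 ± 0.10 (adjusted p = 0.0126), and PRMT3, which modifies a ribosomal protein, differed by 0.61 ± 0.089 (adjusted p = 0.0123), both under 2-fold. CHD7, a chromatin remodeler, differed by 0.70 ± 0.088 (adjusted p = 0.00797). Of the 24 measured genes that the study names 2 rose, CCND2 and AKAP1, and 0 fell. The study chose them on these samples, so their directions are not independent evidence.

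Markers of other cell types had median levels between 5.28 and 6.06 on these 4 arrays, near the low end of the scale. Single markers stood well above these medians. KRT18 read 11.16 and 10.74 on the BJEL arrays and 11.46 and 10.95 on the arrays labelled BJELM. It is a keratin of simple epithelia that fibroblasts can also make. KRT19, another keratin, read 9.89 and 9.27 on the BJEL arrays and 9.66 and 8.805 on the arrays labelled BJELM. The endothelial marker JAM2 read 8.75 and 8.34 on the BJEL arrays and 9.73 and 9.38 on the arrays labelled BJELM. Of 18 epithelial, 15 melanocyte and neural and 11 pluripotency markers 0 were called, with 0, 2 and 1 at an unadjusted limma p under 0.05. Of 16 endothelial markers 1 rose, JAM2, a junctional adhesion molecule (1.01 ± 0.17 (adjusted p = 0.0187), lost without BJEL replicate 2 (0.81, adjusted p = 0.0745) and without BJELM replicate 1 (0.84, adjusted p = 0.0544)), and 1 fell, FLT1. Of 15 leukocyte markers CD68, a lysosomal protein also made by fibroblasts, fell by 1.08 ± 0.092 (adjusted p = 0.0031) and LCP1, an actin-bundling protein, rose by 1.32 ± 0.23 (adjusted p = 0.0188), lost without BJEL replicate 1 (1.32, adjusted p = 0.102) and without BJEL replicate 2 (1.33, adjusted p = 0.0852) and without BJELM replicate 1 (0.99, adjusted p = 0.0258). The summed signal of the leukocyte list was 11.86 and 11.83 on the BJEL arrays and 11.29 and 11.23 on the arrays labelled BJELM, on the log2 scale. Among 17 control genes TFRC rose and B2M fell, and GAPDH read 13.73 and 13.66 on the BJEL arrays and 13.74 and 13.61 on the arrays labelled BJELM.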

How the data were processed

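The authors hybridized total RNA of the 3 lines to Affymetrix Gene ST arrays, 2 per line, and deposited log2 signals of 33297 probe sets. Per the submitters' processing notes these were made by RMA (background correction, normalization of all arrays to the same distribution, and probe set summary) with Affymetrix Expression Console, version 1.3.1. An array has no read depth, and the number of arrays limits precision.

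A platform table gave 1 gene symbol for 19460 probe sets, several for 1754, and did not list 12083. For genes with several single-symbol probe sets (769 of 18417 genes), the probe set of highest mean signal was kept. RefSeq GRCh38.p14 supplied current symbols and chromosomes, by Entrez ID, for 18389 genes.

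Differences were fitted in R 4.3.3 using limma 3.58.1 with a mean per line for all 6 arrays and two-sided moderated tests (3 residual and 3.13 prior degrees of freedom). The study's methods name a t-test for unequal variances, which was run as an alternative without the study's modification. The fit was tested on simulated data.

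The members and gene lists were chosen with earlier results of these data known. The named genes are, first, the 15 called genes that rose most and the 15 that fell most, restricted to named loci with a mean of 7.26 (the median gene) or more and no overlap between the lines. Added to these are MYC, ESR1, TERT, the genes the study names, and up to 6 called members per list or, where none was called, the 2 with the highest level. HERC5, DDX60, TAF4B, EEF2K, CIPC, GAA, the solute carriers, complement, class II and APOBEC3 genes, and the members CCND1, CCND3, FBL, NPM1, NCL, CAD, ODC1, LDHA, ISG15, CXCL10, CENPI and MKI67 were named outside the rule, after their values were seen. The search for the interferon response element was also added after the data were seen. Y-linked genes and XIST are not reported. Alternatives left out each array, fitted 4 arrays alone, used a replicate block, other normalizations, filters, probe set summaries, thresholds and tests. The study's other data types were not analysed here.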

Additional observations from a re-analysis of the deposited data

How the results depend on the processing

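Without a fold minimum the genes called numbered 835 higher and 1157 lower. At an adjusted p under 0.01 with the 2-fold minimum 196 fell. The methods' t-test called 102 higher and 129 lower at an unadjusted p under 0.05 with 2-fold, and 0 and 0 after Benjamini-Hochberg adjustment, where limma at an unadjusted p under 0.05 gave 4687 genes at any fold. Leaving out 1 array gave 132 to 183 genes higher and 195 to 416 lower. Where that leaves a line with 1 array, its spread is assumed to be that of the others. The share of called genes that were higher was 34.4%, and 45.5% without BJELM replicate 2. All other settings kept both counts within 1.5 times. With a replicate block 174 genes were higher and 370 lower. The labels number the arrays without stating a pairing, and the deviations of same-numbered arrays from their line means correlated at 0.55 across genes, with only 2 pairs. Genes named outside the rule were not followed singly through these settings, and named genes are here those of the rule. No such gene that was called changed sign under any setting run. The median over all genes, reported as 0.03, was -0.03 when genes under the median signal were left out, and 9 of the 67 list medians, each within 0.044 of 0 as deposited, changed sign under quantile normalization or median centring. Of 123 named genes that were called, 71 were called whichever array was left out.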

Other observations

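Of 388 measured solute carriers, the transporters of the cell's membranes, 14 rose (3.61%, against 0.923% of all genes) and 7 fell (1.80%, against 1.76%), with a median difference of 0.02 against 0.03 over all genes. This group was chosen after its values were seen, and no test was made of it. SLC7A2, a carrier of cationic amino acids, read 6.23 and 6.25 on the BJEL arrays and 9.68 and 9.88 on the arrays labelled BJELM, a rise of 3.54 ± 0.10 (adjusted p = 0.00024). The thiamine carriers SLC19A2 and SLC19A3 rose by 1.75 ± 0.091 (adjusted p = 0.00117) and 2.33 ± 0.12 (adjusted p = 0.00116). Both levels were separated between the lines, and SLC19A3 was near the low end of the scale in BJEL, at 5.82 and 5.98. SLC6A15, a neutral amino acid carrier, rose by 2.34 ± 0.092 (adjusted p = 0.000515), SLC16A10, an aromatic amino acid carrier, by 1.71 ± 0.12 (adjusted p = 0.0019), and SLC43A2, a carrier of large neutral amino acids, by 1.61 ± 0.15 (adjusted p = 0.00421). SLC29A1 and SLC29A2, which carry nucleosides, rose by 1.13 ± 0.12 (adjusted p = 0.00486) and 1.23 ± 0.17 (adjusted p = 0.0112). SLC4A4, a bicarbonate cotransporter, fell by 1.43 ± 0.13 (adjusted p = 0.00374).

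Some other immune genes outside the lists, also chosen after their values were seen, fell, while most members of their families were not called. Of 28 complement genes 4 fell and 0 rose, with a median of 0.03. C1R, a protease of the first complement component, read 10.27 and 9.26 on the BJEL arrays and 7.94 and 6.76 on the arrays labelled BJELM, a log2 difference of -2.41 ± 0.46 (adjusted p = 0.0258). C1S, its partner, fell by 2.60 ± 0.61 (adjusted p = 0.0473), and SERPING1, the inhibitor of both, fell by 1.84 ± 0.36 (adjusted p = 0.0289). Of 11 class II genes 2 fell, with a median of -0.17: HLA-DPA1 fell by 2.02 ± 0.35 (adjusted p = 0.0202) and HLA-DPB1 fell by 1.79 ± 0.42 (adjusted p = 0.0473). Of 6 APOBEC3 genes, which encode cytidine deaminases that restrict viruses, 3 fell: APOBEC3G fell by 2.17 ± 0.46 (adjusted p = 0.0362), APOBEC3B fell by 1.34 ± 0.23 (adjusted p = 0.02) and APOBEC3D fell by 1.17 ± 0.25 (adjusted p = 0.0353). In each of these 8 genes BJEL replicate 1 was above replicate 2 and BJELM replicate 1 above replicate 2.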
